A study of Mus musculus with 1829 samples.

Results

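Insulin-reactive CD4+ T cells taken from blood were compared with those taken from pancreatic islets, all sorted with the IAg7 tetramer that carries insulin B chain residues 12-20. The cells were chosen by their labels: tetramer 12-20, tissue blood or islets, age 7 or 8 weeks. They number 487 of the 1829 cells of the series, 293 from blood and 194 from islets. All came from the NOD/ShiLtJ strain, whose mice become diabetic through autoimmunity without any intervention; no transgene, knockout or treatment is given in the labels. Each CD4+ cell was stained with the PE-labelled tetramer, sorted singly into a well and assayed by quantitative PCR with 96 assays. A transcript counted as detected when its call was pass and its Ct, the cycle at which it crossed the threshold, was under 24. Its level is given as log2Ex, 24 minus Ct, and is 0 where it was not detected.

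CD4+ T cells patrol the blood, enter tissues where their antigen is displayed and are stimulated there through the T cell receptor. Stimulation raises early response genes such as Nr4a1 and then co-stimulatory and inhibitory receptors such as Icos, Pdcd1 and Ctla4, while the interleukin-7 receptor, which keeps resting and memory cells alive, is usually lowered. In the islets of NOD mice insulin is a major early antigen, and both effector and Foxp3+ regulatory CD4+ cells are found there.

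Wells fell into separate ranges of depth, which was the number of assays detected per well. At least 20 assays were detected in 165 of the 487 wells, 89 of blood and 76 of islets, and these wells were kept. Cells are not replicates, so the kept wells of 1 animal or sort, tissue and chip were averaged into a unit where there were at least 5. This gave 5 blood units (88 cells, 9 to 24 each) and 4 islet units (65 cells, 6 to 22 each). The blood units were all 8 weeks old: animal 1, animal 2, animal 4, and animal 3 on 2 chips. The islet units were animal 1, animal 2 and islet sort 2 at 7 weeks and animal 3 at 8 weeks; whether a sort was 1 animal is not stated. Only 1 chip held both tissues, those of animal 3 at 8 weeks, so outside it tissue cannot be told apart from age and chip. The blood units of animals 1 and 2 shared a chip, as did those of animals 3 and 4, and p-values measure the spread between these units. The share of wells kept ran from 0 to 100% between units of each tissue. Averaged over units with at least 5 wells it was 34.5% ± 34.4 in blood (SD, n = 7) and 37.01% ± 39.9 in islets (SD, n = 9; exact permutation p = 0.90, two-sided). Kept islet wells detected more assays, 47.8 ± 4.73 (SD, n = 4 units), than kept blood wells, 41.1 ± 1.45 (SD, n = 5 units; exact permutation p = 0.0317, two-sided, where 0.0159 is the smallest possible). The kept wells were chosen by this same number, and over all wells the means were 22.5 ± 16.8 (SD, n = 9 units) and 20.7 ± 11.6 (SD, n = 7 units; exact permutation p = 0.811, two-sided), so the difference describes kept wells only. By unit the means were 53.7, 42.2, 46.95 and 48.5 in islets and 41, 42.04, 42.7, 41.1 and 38.9 in blood.

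**Figure D1:**
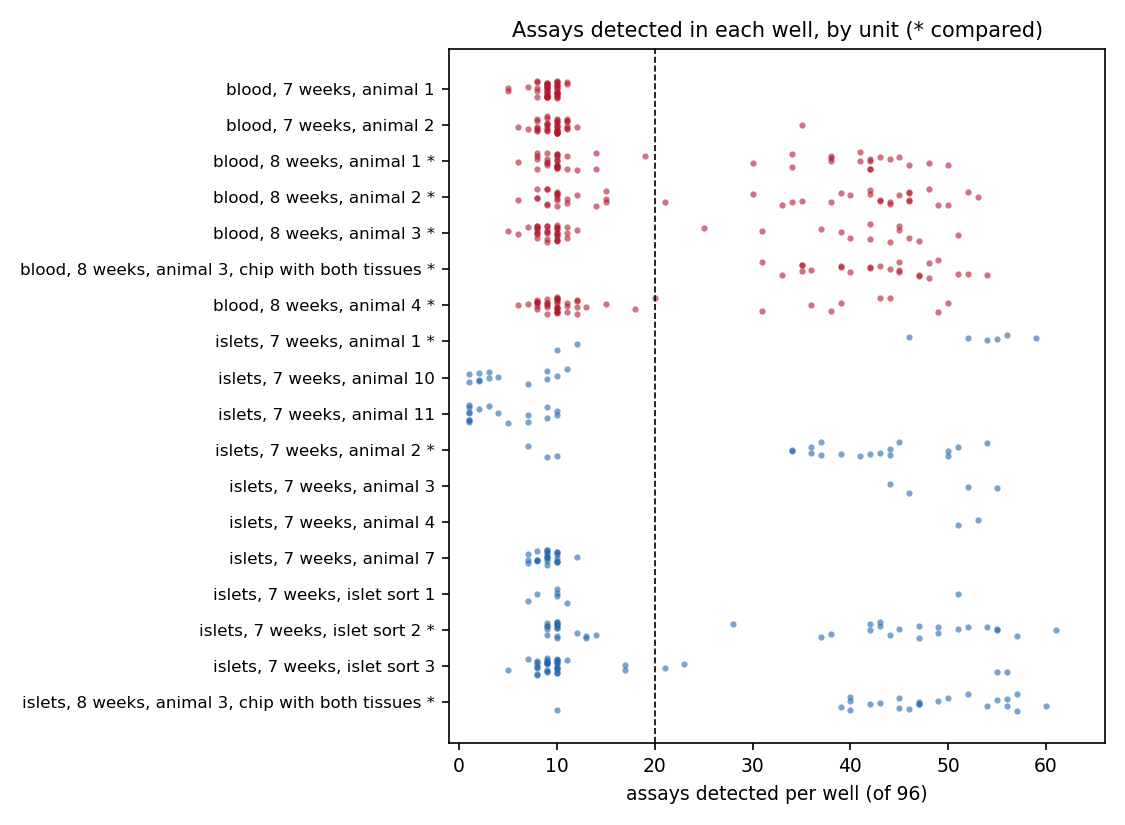
Number of assays detected (x axis, of 96) in each well, 1 point per well, for each blood (red) and islet (blue) unit; the dashed line marks 20 assays and stars mark the units compared. Most wells lie either near 10 assays or above 30, and the 7-week blood units had 0 of 46 and 1 of 39 wells at or beyond the line.

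The sorted population was checked by its markers in the kept wells. Cd3e, part of the CD3 signalling complex, was detected in 96.2% ± 5.29 of blood wells and 98.5% ± 2.94 of islet wells (SD over units), and Cd4 in 69.5% ± 10.8 and in all islet wells. Cd8a, which marks cytotoxic T cells and is the 1 marker of other cells with an assay, was detected in 1 of 24 wells of 1 blood unit, 1 of 20 wells of islet sort 2 and in no other unit. This rests on the call: a further 79 of 88 blood and 40 of 65 islet wells had a Cd8a Ct under 24 with a failed call. Markers of B, myeloid, NK and islet endocrine cells had no assay. In the 204 blood and 118 islet wells below 20 assays, Cd4 was detected in 2 and 0 wells and Cd3e in 8 and 3. There, 10 assays were still detected in 55.9 to 100% of wells of both tissues, among them Gapdh, Gsk3a, Cxcl10 and Bcl2, so detection of these 10 does not mark a kept well.

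Of 74 genes tested, 17 were higher in islets and 2 in blood at an adjusted p under 0.05 (limma on unit means, Benjamini-Hochberg), and 32 had an unadjusted p under 0.05. The 19 genes are 25.7% of those tested, 23% higher in islets and 2.7% higher in blood. The unit groups did not overlap for 13 of the 19 genes and for 15 of all 74 (20.3%). The median difference of all 74 genes was 0.94 log2Ex towards islets and the mean 1.13. With each unit centred on its mean, 9 genes were higher in islets and 8 in blood, and with each unit scaled on Gapdh 15 and 5. Centring kept 11 of the 19 genes; among those lost were Foxp3 (2.13, adjusted p = 0.143), Il10 (1.52, adjusted p = 0.177), Il21 (1.70, adjusted p = 0.163), Bcl6 (1.06, adjusted p = 0.17), Aim2 (1.64, adjusted p = 0.0924), Cd44 (0.86, adjusted p = 0.169) and Zeb2 (1.08, adjusted p = 0.139). With animal 3's blood cells merged over chips, 4 against 4 units, 15 of the 19 genes passed, and Tnf (adjusted p = 0.0833), Aim2 (0.156), Zeb2 (0.0538) and Cd44 (0.08) were lost. Genes were tested if found in 5% of the cells of either tissue, and Il10, Il21 and Zeb2, in 2, 2 and 3 of 88 blood cells, entered through islets alone, where they were high, so that they passed is no separate support. With no such filter Il10 and Il21 passed (both adjusted p = 0.0344), and Zeb2 (0.0603) and Foxp3 (0.0774) did not. All differences below are islets minus blood in log2Ex over 4 and 5 units; they hold both the share of wells with a transcript and its level, so they are not fold changes. For most genes the difference within the chip that held both tissues follows.

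**Figure D2:**
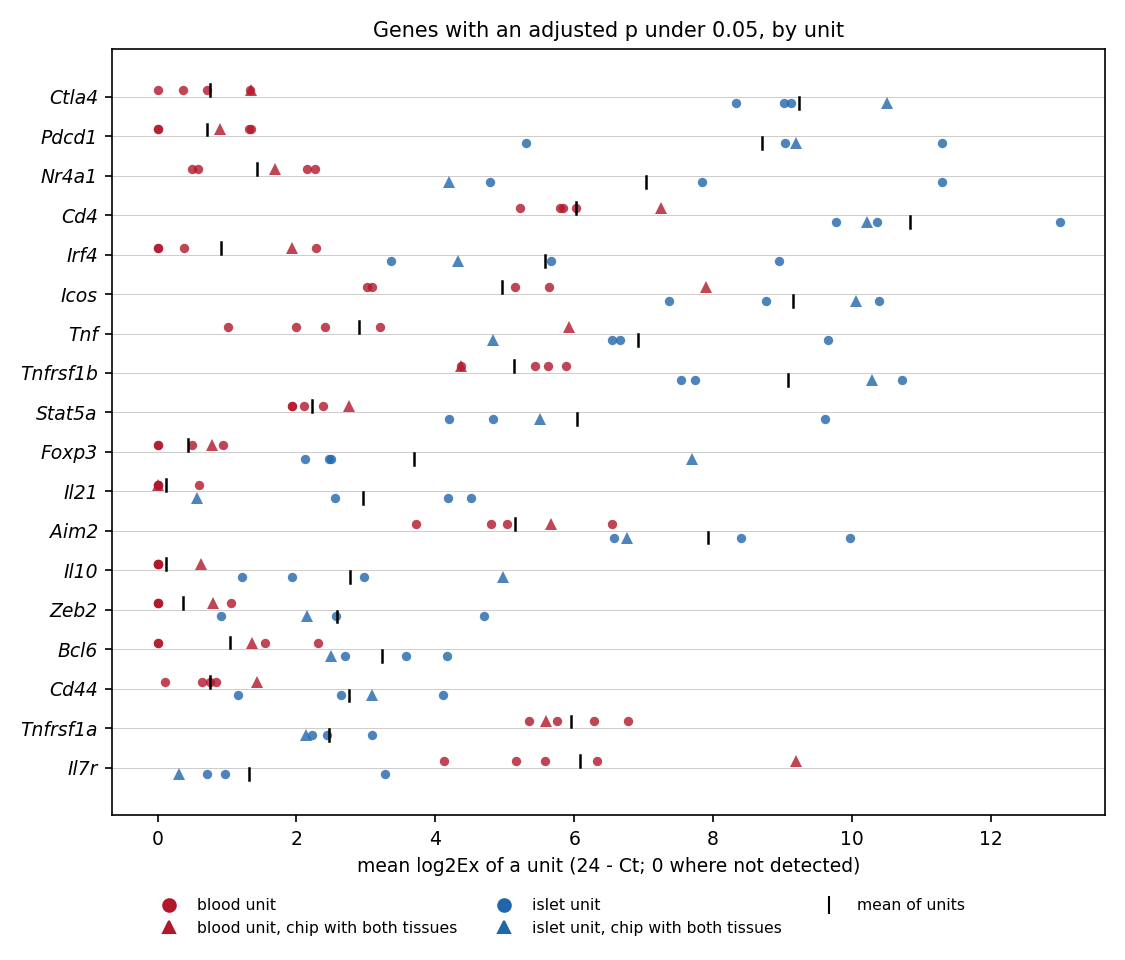
Mean log2Ex (x axis) of each blood (red) and islet (blue) unit for 18 of the 19 genes with an adjusted p under 0.05; triangles are the units on the chip with both tissues and black bars the means of units. Ctla4 units lie at 1.35 or below in blood and at 8.32 or above in islets, and Il7r and Tnfrsf1a lie the other way round.

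The inhibitory receptors stood farthest apart. Ctla4, which competes with CD28 for its ligands and restrains T cells, averaged 0.37, 0.72, 1.35, 1.34 and 0.00 in the blood units (animals 1, 2, 3 on the chip with both tissues, 3 on its other chip, and 4). In the islet units (7-week animals 1 and 2, islet sort 2, 8-week animal 3) it averaged 9.02, 8.32, 9.12 and 10.50. The groups lay far apart, and every islet unit was above every blood unit. The difference was 8.49 (SE 0.547, adjusted p = 2.02e-06, limma), and 9.15 within the chip. Its transcript was found in 97.4% ± 3.06 of islet wells and in 8.35% ± 6.00 of those from blood (SD over units). Pdcd1, the receptor PD-1 that dampens T cell receptor signalling, averaged 0.00, 1.34, 0.90, 1.31 and 0.00 in blood and 11.30, 5.30, 9.04 and 9.19 in islets. Again no islet unit reached down to the blood range, although animal 2 of 7 weeks was lowest among islets. Pdcd1 differed by 8.00 (SE 1.02, adjusted p = 0.000455) and by 8.29 within the chip, with detection in 83.7% ± 17.7 of islet and 8.91% ± 8.27 of blood wells. The blood share rests on 9 wells with a passed Pdcd1 call. A further 15 of 88 blood and 2 of 65 islet wells had a Pdcd1 Ct under 24 with a failed call. With calls ignored Pdcd1 also passed. Both inhibitory receptors with an assay thus passed, with a median difference of 8.24 beside 0.94 for all genes. Cd274, which encodes the PD-1 ligand PD-L1, stood at 3.12 (SE 1.13, adjusted p = 0.0691) and 1.90 within the chip.

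The sequences before the start sites of 4 genes, 2 higher in islets and 2 higher in blood, are shown. Their blood and islet units did not overlap, which held for 15 of the 74 genes tested, so that alone did not choose them. Ctla4 and Pdcd1 had the largest differences, and Il7r and Tnfrsf1a were the 2 genes that passed as higher in blood. They are the 250 bases upstream of the start in RefSeq, build GRCm38.p6, read 5′ to 3′ on the strand of the gene. Capitals mark GGAAA or its reverse complement TTTCC, searched on both strands, the core that NFAT factors of T cell receptor signalling recognise. Ctla4 has 1 match, Pdcd1 has 2, Il7r has 1 and Tnfrsf1a has 0, and 55.6% of 32851 such windows have at least 1.
Ctla4 (chr1:60908775-60909024, plus strand): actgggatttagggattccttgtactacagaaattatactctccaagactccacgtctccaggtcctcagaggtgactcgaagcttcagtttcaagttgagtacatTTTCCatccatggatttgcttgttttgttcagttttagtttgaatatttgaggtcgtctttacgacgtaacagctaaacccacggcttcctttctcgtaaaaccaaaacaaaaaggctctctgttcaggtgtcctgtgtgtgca
Pdcd1 (chr1:94052554-94052803, minus strand): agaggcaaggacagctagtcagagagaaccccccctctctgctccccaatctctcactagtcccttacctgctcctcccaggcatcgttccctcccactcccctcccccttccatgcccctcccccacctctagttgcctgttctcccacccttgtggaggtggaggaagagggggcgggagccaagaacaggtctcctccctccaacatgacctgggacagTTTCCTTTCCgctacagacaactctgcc
Il7r (chr15:9529877-9530126, minus strand): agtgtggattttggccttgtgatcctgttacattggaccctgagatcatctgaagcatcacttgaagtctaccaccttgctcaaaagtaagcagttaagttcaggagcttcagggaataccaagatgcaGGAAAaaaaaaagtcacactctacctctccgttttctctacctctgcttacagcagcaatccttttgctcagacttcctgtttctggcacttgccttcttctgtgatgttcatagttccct
Tnfrsf1a (chr6:125349473-125349722, plus strand): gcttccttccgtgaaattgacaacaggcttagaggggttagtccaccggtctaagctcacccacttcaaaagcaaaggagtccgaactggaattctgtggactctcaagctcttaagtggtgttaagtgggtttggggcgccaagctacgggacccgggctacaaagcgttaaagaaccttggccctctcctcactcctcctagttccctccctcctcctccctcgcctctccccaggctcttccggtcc

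Of the tested genes of T cell activation 4 were higher in islets, but none of these passed with assays per well as a covariate. Nr4a1, which encodes Nur77 and is switched on by T cell receptor signals, averaged 0.59, 2.26, 1.68, 0.50 and 2.15 in blood and 11.30, 4.78, 7.84 and 4.20 in islets. The groups did not overlap, and the islet units themselves spread widely. It differed by 5.59 (SE 1.30, adjusted p = 0.0149), by 2.52 within the chip. Irf4, a transcription factor whose amount follows the strength of receptor signals, differed by 4.65 (SE 1.07, adjusted p = 0.0149), by 2.39 within the chip, and was detected in 59.6% ± 18.3 of islet and 11.1% ± 13.2 of blood wells. Icos, a co-stimulatory receptor, averaged 3.08, 5.64, 7.89, 5.15 and 3.02 in blood and 10.39, 7.37, 8.75 and 10.06 in islets. Animal 3 on the chip with both tissues was the highest blood unit and lay above the lowest islet unit. Icos differed by 4.19 (SE 1.06, adjusted p = 0.0222) and by 2.16 within the chip. Cd44, an adhesion receptor of antigen-experienced cells, differed by 1.99 (SE 0.606, adjusted p = 0.038), by 1.65 within the chip. Of the 6 tested activation and memory genes 4 rose in islets and 2 did not pass, with a median of 3.09. These 2 were Cd28, a co-stimulatory receptor, at 1.84 (SE 0.696, adjusted p = 0.0726), and Il2ra, described below. With the covariate Nr4a1 stood at 2.52 (adjusted p = 0.392, limma) and Irf4 at 2.42 (0.359). Icos stood at 1.70 (0.515) and Cd44 at 0.38 (0.835). In wells of 30 to 50 assays Nr4a1 (adjusted p = 0.0152, limma) and Icos (0.0404) passed, and Irf4 (0.146) and Cd44 (0.0922) did not.

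Of the regulatory T cell genes, Foxp3 and Il10 were higher in islets, and most of all on the chip with both tissues. Foxp3, the factor that defines regulatory T cells, averaged 0.50, 0.00, 0.78, 0.94 and 0.00 in blood and 2.13, 2.47, 2.49 and 7.70 in islets. The groups did not overlap, and the 8-week islet unit stood far above the other islet units. The difference was 3.26 (SE 1.06, adjusted p = 0.0467), 6.92 within the chip and 1.92 (SE 0.389, adjusted p = 0.0113) without that islet unit. On the chip, 17 of 22 islet wells held Foxp3 (77.3%, exact Clopper-Pearson 95% interval 54.6 to 92.2%) and 2 of 24 blood wells (8.33%, 1.03 to 26.997%); these intervals cover counting error only. Il10, an anti-inflammatory cytokine, averaged 0.00 in 4 blood units and 0.62 in the blood unit of that chip, against 1.21, 2.97, 1.93 and 4.98 in islets. It differed by 2.65 (SE 0.708, adjusted p = 0.0247), by 4.36 within the chip. Il2ra, the high-affinity chain of the interleukin-2 receptor, did not follow: its difference was -1.22 (SE 1.23, adjusted p = 0.466) and 1.05 within the chip. In islets it ran from 2.28 and 3.20 in animal 2 and sort 2 to 7.57 and 8.25 in animals 1 and 3, and in blood from 5.13 to 7.51. In wells of 30 to 50 assays Il2ra passed as higher in blood, at -3.47 (SE 0.933, adjusted p = 0.023). Thus 2 of 3 regulatory T cell genes rose in islets and 1 did not pass. Of these 2, Il10 entered the test through islets alone and Foxp3 did not pass without the gene filter, so the tally is no separate support. With centred units 0 of 3 passed (limma, Il2ra at -2.35, adjusted p = 0.0924).

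All 4 follicular helper genes with an assay rose in islets, with a median of 3.51. Icos and Pdcd1 are among them, and with centred units these 2 alone passed. Il21 entered the test through islets alone, so its place among the 4 is no separate support. Bcl6, the repressor that directs the follicular helper programme, averaged 0.00, 1.54, 1.36, 2.31 and 0.00 in blood and 4.17, 2.70, 3.58 and 2.50 in islets. The highest blood unit lay just below the lowest islet unit, and the difference was 2.19 (SE 0.627, adjusted p = 0.0304), 1.14 within the chip. Il21, a cytokine that helps B cells and CD8 T cells, averaged 0.60 in blood animal 2 and 0.00 in the other blood units, and 2.56, 4.51, 4.18 and 0.56 in islets. The 8-week islet unit lay within the blood range and the 7-week units above it. Il21 differed by 2.83 (SE 0.761, adjusted p = 0.0247) and by 0.56 within the chip, where 2 of 22 islet wells and 0 of 24 blood wells held it (0 of 24 allows a share of up to 12.5%).

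Receptors for tumour necrosis factor moved in opposite directions. Tnfrsf1b, which encodes TNFR2, a receptor that supports activated and regulatory T cells, averaged 4.37, 5.63, 4.38, 5.43 and 5.89 in blood and 10.72, 7.54, 7.74 and 10.29 in islets. The difference was 3.93 (SE 0.769, adjusted p = 0.00683), 5.91 within the chip, with no overlap between the groups. With assays per well as a covariate Tnfrsf1b stood at 2.355 and did not pass (adjusted p = 0.196, limma). Tnfrsf1a, which encodes TNFR1, the receptor with a death domain, averaged 6.29, 5.76, 5.60, 5.35 and 6.78 in blood and 3.09, 2.43, 2.22 and 2.14 in islets. Every islet unit was below every blood unit, with a difference of -3.48 (SE 0.457, adjusted p = 0.000455) and -3.46 within the chip. Tnfrsf1a was detected in 69.0% ± 6.87 of blood and 28.8% ± 3.54 of islet wells. A further 19 of 88 blood and 36 of 65 islet wells had a Ct under 24 with a failed call, and with calls ignored the difference was -1.80 (SE 0.527, adjusted p = 0.0413). Failed calls under 24 were also uneven for Tnfrsf1b, which stood at 2.20 with calls ignored (adjusted p = 0.0309); they were found in 31 blood wells and 5 islet wells. Where Tnfrsf1a was detected in at least 3 wells of a unit, its level was 8.64 ± 0.31 in blood (SD, 5 units) and 8.33 ± 0.51 in islets (SD, 3 units). Tnf itself differed by 4.02 (SE 1.14, adjusted p = 0.0304), with 3.21, 2.41, 5.92, 1.99 and 1.01 in blood and 9.66, 6.66, 6.54 and 4.83 in islets. Its groups overlapped, and within the chip the sign was the other way, at -1.08. Failed calls with a Tnf Ct under 24 were found in 37 of 88 blood and 10 of 65 islet wells. With calls ignored Tnf also passed. Traf2, an adaptor of both receptors, stood at 2.06 (SE 0.98, adjusted p = 0.139), so that of 4 genes of this list 2 rose in islets, 1 rose in blood and 1 did not pass.

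Il7r, through which IL-7 keeps T cells alive, was the other gene higher in blood. It averaged 5.58, 5.16, 9.19, 4.13 and 6.32 in blood and 3.27, 0.97, 0.71 and 0.32 in islets. The groups did not overlap, and the chip with both tissues held the highest blood unit and the lowest islet unit. The difference was -4.76 (SE 1.01, adjusted p = 0.0107) and -8.88 within the chip. There Il7r was detected in 21 of 24 blood wells (87.5%, 67.6 to 97.3%) and in 1 of 22 islet wells (4.55%, 0.115 to 22.8%). Animal 3 also had blood cells on a second chip, where Il7r averaged 4.13 against 9.19 and Ifng 6.85 against 3.79; whether this is the same animal and draw is not stated. Ccr7, which guides naive and central memory cells to lymph nodes, stood the other way at 2.72 (SE 1.05, adjusted p = 0.0726), 0.47 within the chip. Of 7 cytokine receptor genes tested Il7r alone passed, and the list's median was -1.22. Ifngr1, a chain of the interferon gamma receptor, stood at -2.83 (SE 1.01, adjusted p = 0.0659) and Il4ra, a chain of the interleukin-4 receptor, at -2.74 (SE 1.02, adjusted p = 0.0726), with -0.996 and -1.25 within the chip. Both passed with each unit centred on its mean, at -3.96 (adjusted p = 0.0106) and -3.87 (adjusted p = 0.00455), and on Gapdh. The receptor gene Il27ra stood at 1.83 (SE 0.795, adjusted p = 0.105).

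The defining Th1 genes did not pass in the full comparison. Ifng, the Th1 signature cytokine, averaged 5.61, 6.13, 3.79, 6.85 and 5.47 in blood and 7.08, 5.51, 7.60 and 5.84 in islets. The ranges overlapped, with a difference of 0.94 (SE 0.699, adjusted p = 0.315) and 2.05 within the chip, and with centred units it was -0.19. Tbx21, which encodes T-bet, the master factor of Th1 cells, averaged 6.07, 6.72, 4.74, 7.02 and 6.74 in blood and 5.56, 3.39, 3.50 and 6.58 in islets. It differed by -1.50 (SE 0.783, adjusted p = 0.17) and by 1.85 within the chip, so the chip went against the other units. With centred units Tbx21 passed at -2.63 (adjusted p = 0.016, limma). In wells of 30 to 50 assays it also passed as higher in blood, at -3.12 (SE 0.834, adjusted p = 0.023, limma). Cxcr3, the receptor for chemokines of inflamed tissue, stood at 1.37 (SE 0.804, adjusted p = 0.209) and 2.63 within the chip. Il2, a growth factor of T cells, was found in 1 islet unit alone, animal 1 of 7 weeks, at 1.10, and was not tested. Of 9 tested Th1 and effector genes 2 rose in islets, Tnf among them, and 7 did not pass; the median was 0.94, as for all genes.

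Cd4, whose protein was used for the sort, was itself higher in islets. It averaged 5.22, 6.03, 7.25, 5.84 and 5.80 in blood and 12.99, 9.77, 10.36 and 10.21 in islets. The groups did not overlap, and the difference was 4.80 (SE 0.717, adjusted p = 0.00101), 2.96 within the chip. In wells where it was detected its level was 8.71 ± 0.47 in blood (SD, 5 units) and 10.8 ± 1.46 in islets (SD, 4 units). Cd3e stood at 1.58 (SE 0.668, adjusted p = 0.0986), Zap70, the kinase of the receptor, at 1.36 (SE 0.973, adjusted p = 0.301), and Gapdh, the reference gene, at 0.40 (SE 0.413, adjusted p = 0.466). Assays per well moved the same way, and with their number as a covariate Cd4 stood at 2.94 (adjusted p = 0.0317).

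Signalling and innate sensing genes filled the rest. The assay named Stat5, matched to Stat5a and perhaps not specific to it, detects a transducer of interleukin-2 and interleukin-7 signals. It ran from 1.93 to 2.75 in blood and from 4.19 to 9.61 in islets, a difference of 3.81 (SE 0.977, adjusted p = 0.0222), 2.76 within the chip. Failed calls with a Ct under 24 were found in 43 of 88 blood and 10 of 65 islet wells, and with calls ignored the Stat5a assay stood at 2.03 and did not pass (adjusted p = 0.0794). Aim2, a sensor of DNA in the cytosol, differed by 2.77 (SE 0.817, adjusted p = 0.0341), by 1.08 within the chip; the highest blood unit, 6.54, lay just below the lowest islet unit, 6.58. Zeb2, a repressor found in terminally differentiated effector T cells, differed by 2.21 (SE 0.713, adjusted p = 0.0463), by 1.36 within the chip; its groups overlapped, and it was lost without the gene filter. Of 10 tested signalling genes Stat5a alone passed; Gsk3a, a kinase, stood at 2.08 (SE 0.731, adjusted p = 0.0655) and Fyn, a receptor-proximal kinase, at 1.43 (SE 0.607, adjusted p = 0.0986). Irf2, a regulator of interferon responses, stood at 1.70 (SE 0.65, adjusted p = 0.0726). Of 10 tested interferon-stimulated genes 2 rose in islets, Aim2 among them, and 8 did not pass, with a median of -0.00497. Cxcl10, a chemokine of this list, stood at -1.50 (SE 0.577, adjusted p = 0.0726), and it was also detected in 89.7% of blood wells below 20 assays. Ifit3, Isg15 and Ifi44, also of this list, were detected in 100, 94.1 and 90.7% of those wells. None of 7 chemokine receptor genes, 3 antigen-presenting cell genes and 2 reference genes passed (limma). Ccr7 and Cd274 had an unadjusted p under 0.05 (limma). The chemokine receptors Ccr2 and Ccr6 were detected in 97.1 and 98.5% of blood wells below 20 assays. Detection of such genes does not mark a kept well, so they say little in either list.

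**Figure D3:**
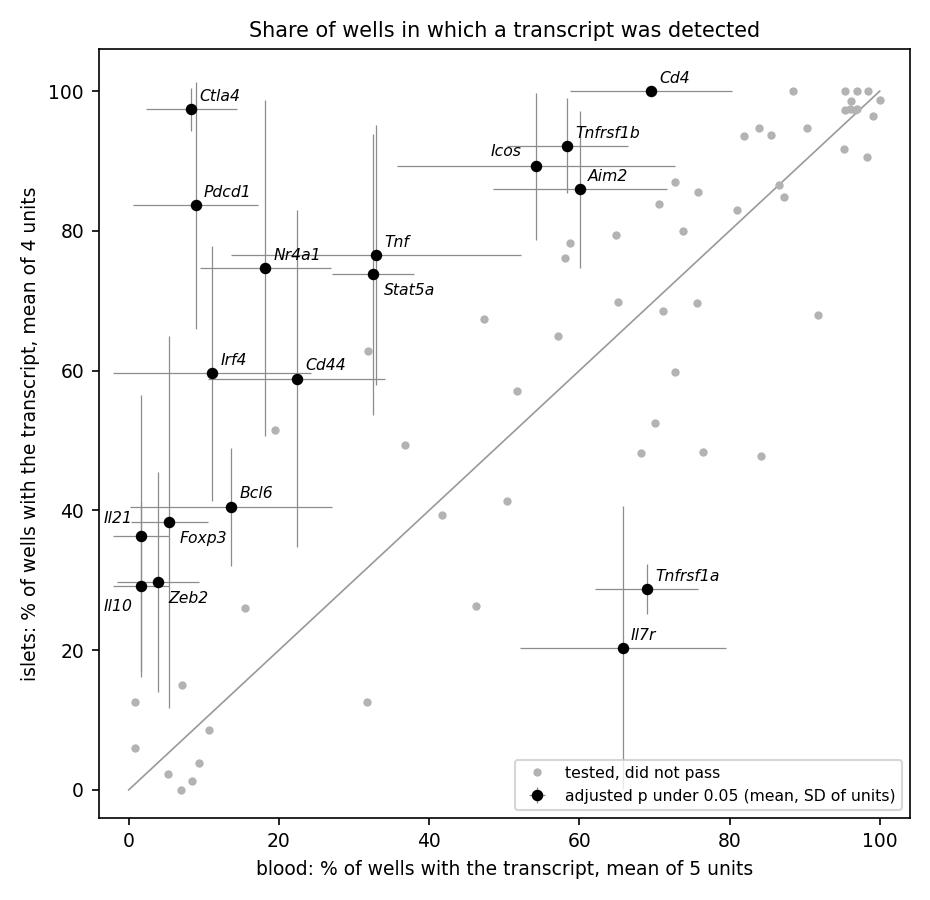
Share of wells in which a transcript was detected in blood (x axis, mean of 5 units) and islets (y axis, mean of 4 units) for 73 of the 74 genes tested; black points passed at an adjusted p under 0.05, with bars of 1 SD over units. Ctla4 and Pdcd1 lie at the upper left, at 97.4 and 83.7% of islet wells, and Il7r and Tnfrsf1a below the diagonal at 20.3 and 28.8%.

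Within the chip that held blood and islet cells of animal 3, 18 of the 19 genes had the sign of the full comparison; Tnf was the exception. Over all 74 genes 58 had the same sign. These 2 units are also part of the full comparison, so the chip is not separate evidence, and with 1 unit per tissue it allows no test. Without that chip 15 genes were higher in islets and 4 in blood, 16 of the 19 among them. On the chip, kept wells detected 42.7 assays in blood and 48.5 in islets. Ctla4 was found in 21 of 22 islet wells (95.5%, 77.2 to 99.9%) and 3 of 24 blood wells (12.5%, 2.66 to 32.4%). Tnfrsf1b was found in 21 of 22 islet and 11 of 24 blood wells, and Tnfrsf1a in 6 and 15. Kept wells of the same animal from lymph node (11) and spleen (10) were on this chip too. They detected 34 and 33.9 assays on average, fewer than the kept wells of blood and islets. Ctla4 averaged 1.36 and 0.00 there, Foxp3 0.70 and 1.51, and Il7r 5.31 and 2.88, so that for Ctla4 and Foxp3 the islet unit stood above the other 3 tissues, a difference not tested with 1 unit each.

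**Figure D4:**
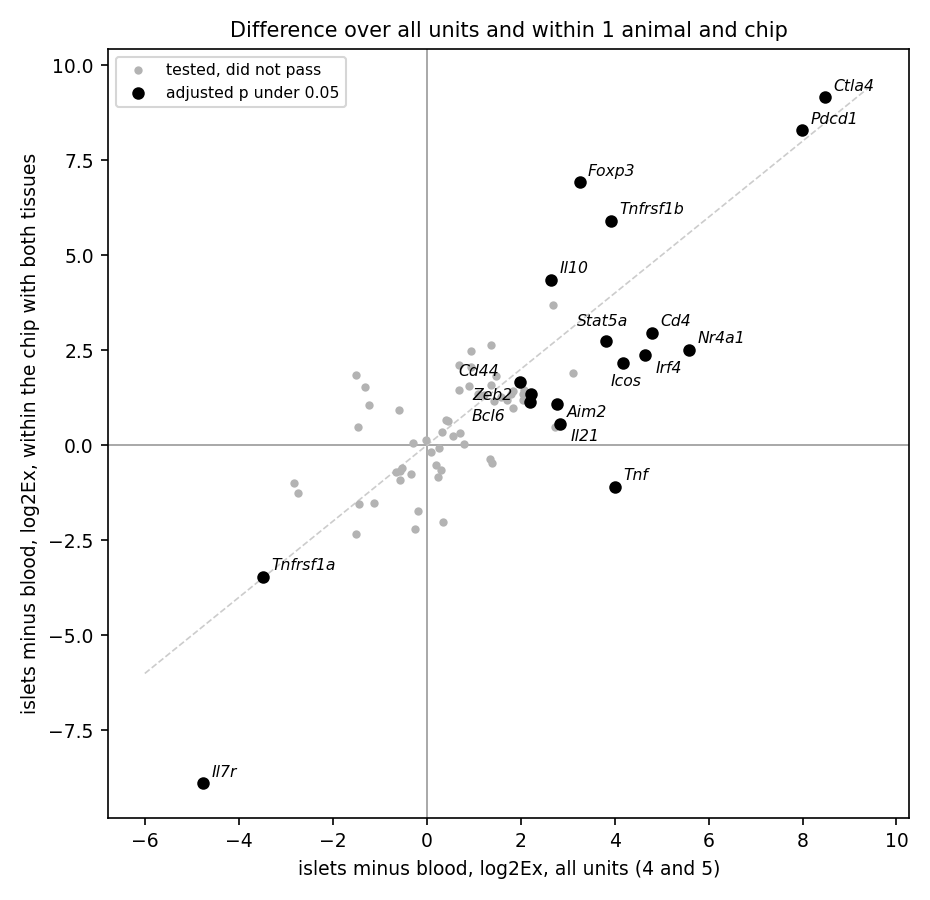
Difference islets minus blood in log2Ex over all units (x axis) and within the chip with both tissues (y axis) for 73 of the 74 genes tested; black points passed at an adjusted p under 0.05 and the dashed line marks equal values. Ctla4 and Pdcd1 lie at the upper right, Il7r and Tnfrsf1a at the lower left, and Tnf at -1.08 within the chip.

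Pairs of transcripts in the same well were counted over the 88 blood and 65 islet wells, as a description. Ctla4 and Pdcd1 were detected together in 52 islet wells and 3 blood wells. All 29 islet wells with Foxp3 also held Ctla4, while 34 islet wells held Ctla4 without Foxp3. As Ctla4 was in 63 of 65 islet wells, this overlap was nearly fixed beforehand. Every one of the 21 islet wells with Il10 held Foxp3, and 8 held Foxp3 without Il10. Foxp3 and Ifng were detected together in 13 islet wells and in 0 of 88 blood wells, of which 5 held Foxp3. The islet unit of animal 3 held 17 of the 29 wells with Foxp3 and 10 of the 21 with Il10. It also held 8 of the 13 with Foxp3 and Ifng. Of 23 islet wells with Il21, 4 held Foxp3 and 18 held Pdcd1. Ifng and Tbx21 were found together in 46 of the 49 blood wells with Ifng and in 24 of the 42 islet wells with Ifng. Il7r and Tnfrsf1a shared 43 blood wells and 0 islet wells, where 9 held Il7r alone and 18 Tnfrsf1a alone. A further 36 of 65 islet and 19 of 88 blood wells had a Tnfrsf1a Ct under 24 with a failed call. How many of these held Il7r was not counted, so the 0 rests on the call.

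**Figure D5:**
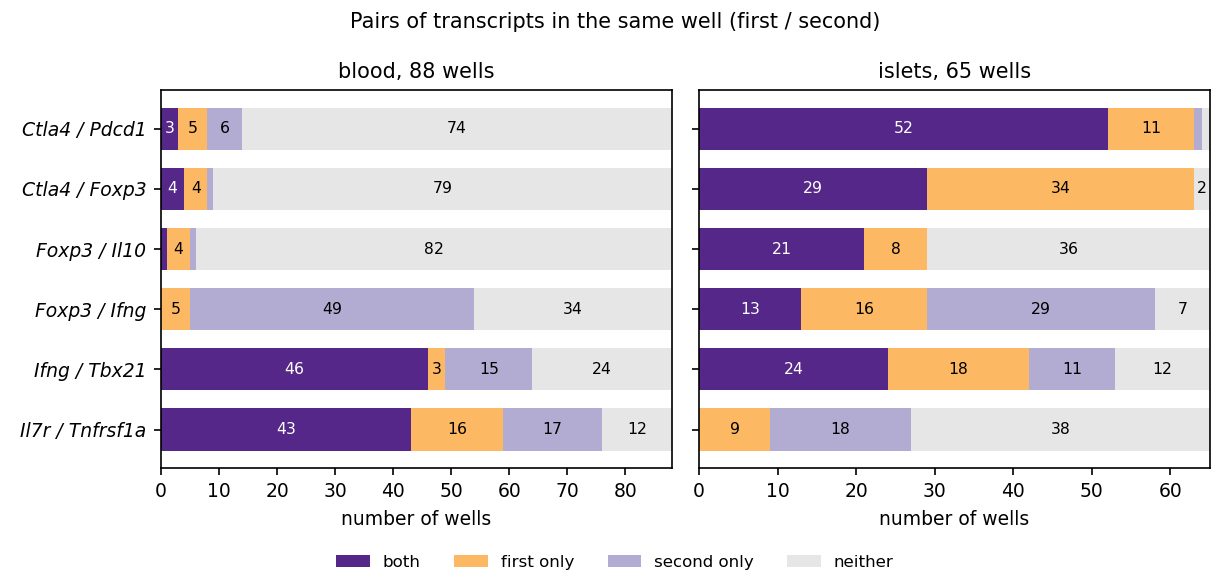
Number of wells (x axis) that held both transcripts of a pair, the first alone, the second alone or neither, in 88 blood wells (left) and 65 islet wells (right), pooled over units; segments of 1 well carry no number. Ctla4 with Pdcd1 fill 52 islet wells, and Il7r with Tnfrsf1a share 43 blood wells and 0 islet wells. A further 36 islet wells had a Tnfrsf1a Ct under 24 with a failed call and count here as not holding it.

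Depth of kept wells moved with the tissue, so the comparison was repeated with the mean number of assays per unit as a covariate. Then 7 genes passed: Ctla4 at 7.83, Pdcd1 at 4.74, Il21 at 4.01 and Cd4 at 2.94 were higher in islets, and Il7r at -6.25, Il4ra at -5.41 and Tnfrsf1a at -3.59 in blood. Among wells with 30 to 50 assays, 10 genes were higher in islets and 7 in blood over 3 and 5 units, and the median of all genes was 0.0562. There Ctla4 stood at 8.00, Pdcd1 at 6.83, Il7r at -5.52 and Tnfrsf1a at -4.96. Foxp3 stood at 2.51 and did not pass (adjusted p = 0.115).

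Leaving out 1 unit at a time separated the 19 genes. Ctla4, Pdcd1, Nr4a1, Cd4, Irf4, Tnfrsf1b, Il7r and Tnfrsf1a, 8 in all, passed in each of the 9 fits, and the other 11 did not. Without blood animal 1 those 8 alone passed, and without blood animal 2 Icos did as well, 9 in all. Without blood animal 3 of the separate chip 12 genes passed; Tnf, Foxp3, Il21, Il10, Aim2, Zeb2 and Cd44 were lost. Without blood animal 4 12 genes passed, and the 8 genes lost included Tnf, Foxp3, Il21, Il10, Zeb2, Bcl6 and Cd44. Without the blood unit of the chip with both tissues 17 genes passed, and Foxp3 and Zeb2 were lost. Among islets, leaving out sort 2 left 11 genes; the 8 lost included Tnf, Foxp3, Il21, Aim2, Zeb2, Bcl6 and Cd44. Leaving out animal 1 of 7 weeks left 13; the 6 lost included Tnf, Aim2, Zeb2, Bcl6 and Cd44. Leaving out animal 3 of 8 weeks gave 17; the 4 lost included Icos, Zeb2 and Cd44. Leaving out animal 2 of 7 weeks gave 30, all 19 among them. The genes lost had adjusted p from 0.0503 to 0.10 in these fits.

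At 13 weeks the islet units of animals 2, 3 and 4 (49 kept wells) gave other values for some of these genes, set beside the same blood units. Ctla4 averaged 6.43, 7.42 and 2.98, and Pdcd1 4.61, 5.30 and 3.29. These lie above all blood units and, for Ctla4, below all islet units of 7 and 8 weeks, a difference between ages that was not tested. Tnfrsf1a averaged 6.26, 4.77 and 8.30, in and around the blood range of 5.35 to 6.78, and Il7r 2.93, 1.31 and 2.69. Tbx21 averaged 2.85, 2.85 and 0.86 and Ifng 0.92, 5.03 and 2.46. The T cell marker Cd3e was itself lower in these units, at 9.57, 10.02 and 5.47. It ran from 10.50 to 12.67 in blood units and from 12.09 to 14.84 in islet units of 7 and 8 weeks. Cd4 averaged 12.43, 9.75 and 12.18. Whether the 13-week wells hold the same kinds of cell was not tested.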

How the data were processed

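The deposited tables, 1 for each chip, hold Ct, a cycle number, with 999 where no threshold was crossed. Per the file headers the authors exported them from Fluidigm Real-Time PCR Analysis 4.0.1, with the quality threshold at 0.65, the baseline set to linear derivative, and an automatic threshold for the whole chip. Later steps named in the labels are not in these tables. Of 2112 wells on 22 chips, 1829 carried the name of a sample; the remaining 283 are not used here. The 6 cells whose labels conflict entered no comparison. Of 96 assays 95 matched a RefSeq symbol, 5 of them by synonym; Il-12rb keeps its assay name.

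Wells with at least 20 assays were averaged per animal, tissue and chip (at least 5 cells), with no scaling. A gene found in 5% or more of the cells of a tissue was tested with limma 3.58.1 (lmFit, eBayes; R 4.3.3), with no block, Benjamini-Hochberg adjustment over the 74 genes and a threshold of 0.05; the fit was tested on simulated data. Depth was compared with exact permutation tests (scipy). The 95% intervals of shares are exact (Clopper-Pearson), the limit for a count of 0 is 3 counts, and both cover counting error only. Where nothing says that units come from separate animals, p-values measure only the spread between units.

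The members, lists and index genes were chosen with earlier results of these data known. Named are genes with an adjusted p under 0.05, up to 15 in each direction; genes with an unadjusted p under 0.05 and the same sign on the chip with both tissues, up to 10; index genes (Ifng, Tbx21, Cxcr3, Tnf, Il2, Foxp3, Il10, Il2ra, Il21, Bcl6, Icos, Pdcd1, Ctla4, Ccr7, Il7r, Cd44, Tnfrsf1a, Tnfrsf1b, Cd4, Cd3e; further index genes are not analysed here); and a few list members. A gene that this rule selects is not reported here. Alternatives changed the wells, cells, detection rule, gene filter, scaling, covariate, block, units and chips.

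Numbers pair few units. Of units compared, only animal 3 of 8 weeks has both tissues. Over all wells, 4 pairs shared animal number and age, and the correlation of their deviations over genes ran from -0.59 to 0.71, so the numbers were not taken as pairs.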

Additional observations from a re-analysis of the deposited data

Results flagged for a closer look

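Among 71 groups of units examined for a unit far from the others, 4 held one, where chance flags about 1 in 20 groups. In 3 of these 4 (Il21, Il10 and Il2) all other units were at 0, so that any value above 0 stands apart by construction. Foxp3 in islets averaged 7.70 in animal 3 of 8 weeks and 2.13 to 2.49 in the other 3 units. Il21 in blood averaged 0.596 in animal 2 and 0 in the other 4 units. Il10 in blood averaged 0.62 in animal 3 on the chip with both tissues and 0 in the other 4 units. Il2 in islets averaged 1.10 in animal 1 of 7 weeks, a unit of 6 wells, and 0 in the other 3 units.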

How the results depend on the processing

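All 19 genes kept their direction in 28 of 30 alternatives; Tnfrsf1a turned in the other 2. Of the 19 genes that passed, 0 passed over all wells (2 at an unadjusted p under 0.05; limma, 9 islet and 7 blood units), and 8 genes passed at 15 assays, 12 at 10 cells per unit, 7 with assays per well as a covariate and 12 with the chip as a random block. Leaving out 1 unit gave 8 to 30. The replicate block of animal number and age, fitted over all wells, gave 3 genes (39 at an unadjusted p under 0.05): Ctla4, Pdcd1 and Tnfrsf1b; under this block Tnfrsf1a turned to 0.71, Ifngr1 to 2.49, Il4ra to 1.71, Tbx21 to 3.29 and Il2ra to 3.58, none passing. Alternatives added after seeing the data gave 37 genes with 13-week islet units and 12 without the units of 6 and 9 wells; Gapdh scaling gave 20. With 13-week islet units the sign turned for Tnfrsf1a (0.49), Cd28 (-1.51), Il27ra (-0.64), Cd3e (-3.49), Ifngr1 (1.28), Il4ra (0.16), Ifng (-2.77) and Cxcr3 (-2.28). With the covariate it turned for Cd28 (-0.19), Il27ra (-0.53), Cd3e (-0.31), Fyn (-0.28) and Cxcr3 (-0.44). Cxcr3 was -0.37 in wells of 30 to 50 assays, Ifng -0.19 after centring, Cxcl10 0.30 with calls ignored, and Tnf -1.08 within the chip with both tissues. The difference in assays per well was 6.68, 1.82 over all wells (exact permutation p = 0.811) and 4.73 to 8.56 leaving out 1 unit, where the exact permutation p exceeded 0.05 in 7 of 9 fits. The causes were not tested. The share of wells kept stayed on its side of the threshold at 15 and 25 assays. Units of 6 to 24 wells limit the precision of every mean.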
